A study of Homo sapiens with 18 samples.

Results

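The 10 genes described here are targets of the hypoxia-inducible factors (HIF) that serve glucose use and the response to low oxygen. They were chosen by name: SLC2A1, PFKFB3, PGK1, ENO1, LDHA, PDK1, BNIP3, P4HA1, VEGFA and ADM. All 10 have a row in the table, and all 10 belong to the 11051 genes that reached 1 FPKM in at least 1 group and were kept. FPKM are by definition sequenced fragments scaled to the length of the transcript and to the number of mapped fragments, so that genes of different length can be compared. The columns deposited here are not level in their totals, which run from 771830 to 1058351 FPKM. The question asked of them was whether the VHL ligand part of the degrader dTRIM24 moves these genes.

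The RNA came from MOLM-13, an established acute myeloid leukaemia line. Its cells were given DMSO (the solvent), IACS-9571 (a ligand of the bromodomains of TRIM24 and BRPF1) or dTRIM24 (a bromodomain ligand joined to a VHL ligand, built to have TRIM24 protein degraded), and RNA was sequenced after 4 h or 24 h. Each of the 6 groups has 3 samples, 18 in all, and no label gives a dose. The table holds 1 mean for each gene and group, so there is no replicate error for any value below, nothing could be tested, and sequencing depth is unknown. Triples of values are always in the order DMSO, IACS-9571, dTRIM24.

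VHL is the part of a ubiquitin ligase that recognises substrates, and it works with elongins B and C, CUL2 and RBX1. In oxygenated cells the prolyl hydroxylases EGLN1, EGLN2 and EGLN3 mark HIF1A and EPAS1, the alpha subunits of HIF, and VHL binds the marked subunits so that they are degraded. Where this fails, the alpha subunits pair with ARNT and bind a short DNA core near genes of glucose uptake, glycolysis, mitophagy, collagen processing and blood vessel growth. A VHL ligand sits in the pocket that binds the hydroxylated subunit.

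The core bound by HIF reads ACGTG or GCGTG, and both strands of the 250 bases before the most upstream RefSeq start of each gene were searched for it. Of the 10 genes, 9 have an entry in the RefSeq promoter table (GRCh38.p14), and VEGFA has none there. A core was present in 7 of these 9 (77.8%), against 59.4% of the 8134 kept genes with an entry. PGK1, ENO1, LDHA and BNIP3 held 2 or more core starts (4 of 9, 44.4%, against 30.6% of those kept genes), and SLC2A1 and PDK1 held none in this window. With every RefSeq start of a gene searched, 8 of 9 (88.9%) held a core, against 66.8%. The stretches that follow show the cores of the most abundant genes (PGK1, LDHA, ENO1), of BNIP3 with its dense run in a pair of overlapping stretches, and of P4HA1 and ADM, which have 1 each. They read 5′ to 3′ on the strand of the gene, each core is in capitals, and positions are counted from the start. The stretches of LDHA, ENO1, P4HA1 and ADM overlap exons that GENCODE annotates for the same gene, and the first ENO1 stretch also overlaps ENO1-AS1. Those of PGK1 and BNIP3 overlap no annotated exon.
PGK1 (chrX:78104022-78104084, plus strand, -226 to -164): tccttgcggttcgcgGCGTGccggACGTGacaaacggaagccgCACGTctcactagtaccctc
LDHA (chr11:18394366-18394395, plus strand, -197 to -168): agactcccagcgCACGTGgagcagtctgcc
LDHA (chr11:18394470-18394499, plus strand, -93 to -64): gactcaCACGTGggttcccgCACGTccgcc
ENO1 (chr1:8878836-8878865, minus strand, -179 to -150): tcacccccctttcCACGCtactgcagccgt
ENO1 (chr1:8878742-8878771, minus strand, -85 to -56): cggagctgaggggGCGTGccccggaggcgg
BNIP3 (chr10:131982041-131982070, minus strand, -147 to -118): cgcgCACGCgccgCACGTGccaCACGCacc
BNIP3 (chr10:131982017-131982046, minus strand, -123 to -94): cgcacccCACGCccctgcgCACGCgcaggc
P4HA1 (chr10:73096936-73096965, minus strand, -99 to -70): gtgtgatcgagctCACGTagcgagggctgc
ADM (chr11:10304959-10304988, plus strand, -114 to -85): agagcaggagcgcGCGTGgctgaggaaaga
CACGT and CACGC are the cores read on the opposite strand. In LDHA and BNIP3 a core lies inside CACGTG, which reads the same on both strands and is counted on each. That palindrome is also the E-box bound by MYC, and it stood in the window of 2 of the 9 genes (22.2%) and of 9.34% of those kept genes. These matches describe letters, and no binding was measured.

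**Figure D1:**
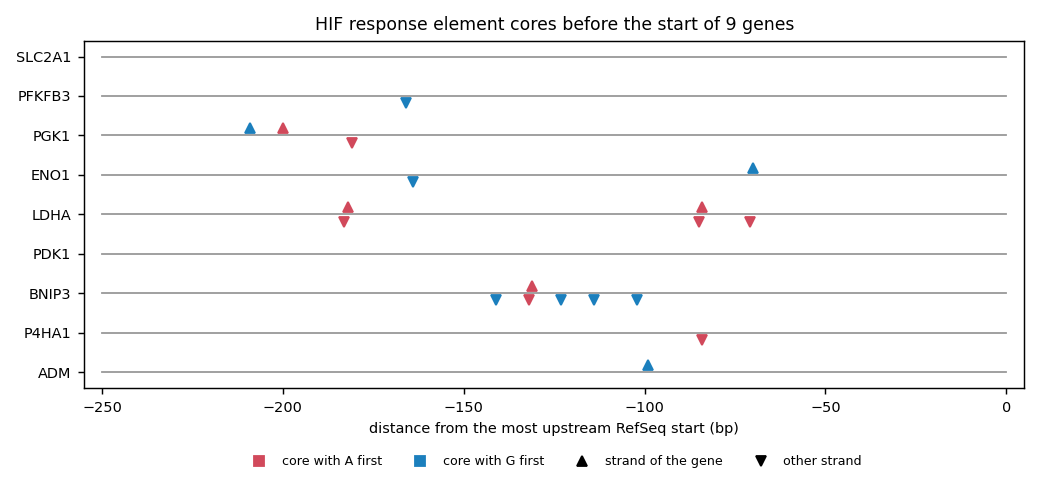
Positions of the HIF core before the most upstream RefSeq start of the 9 genes with an entry, in bp from that start. Triangles pointing up are on the strand of the gene and those pointing down on the other strand, with colours for the first letter of the core. BNIP3 and LDHA carry the most core starts, and the lines of SLC2A1 and PDK1 are empty.

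SLC2A1, the transporter that brings glucose into the cell, stood at 14.9, 13.4 and 12.8 FPKM at 4 h and at 10.6, 10.97 and 14.8 FPKM at 24 h. Its highest values were DMSO at 4 h and dTRIM24 at 24 h, and its lowest were both other 24 h groups. PFKFB3 makes fructose 2,6-bisphosphate, the activator of phosphofructokinase, and stood at 10.7, 11.3 and 10.7 FPKM at 4 h and at 8.60, 9.10 and 11.7 FPKM at 24 h. Its 24 h values in DMSO and IACS-9571 were the lowest of the 6.

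The enzymes of the pathway itself were far more abundant. ENO1, the enolase, ranked 99 of 11051 by its mean over the groups and stood at 1375, 1255 and 1175 FPKM at 4 h and at 1040.1, 988 and 1249 FPKM at 24 h. LDHA, which turns pyruvate into lactate, stood at 762, 717 and 721 FPKM at 4 h and at 627, 584 and 709 FPKM at 24 h. PGK1, the phosphoglycerate kinase, which makes ATP, stood at 414, 389.6 and 389 FPKM at 4 h and at 350.05, 312 and 378 FPKM at 24 h. In each of these 3 enzymes DMSO at 4 h was highest and IACS-9571 at 24 h lowest. Copies elsewhere in the genome can share their reads: GENCODE release 29 names 6 pseudogenes for LDHA, 4 for ENO1, 1 for PGK1 and 39 for BNIP3, and the levels of these genes are uncertain to that extent.

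PDK1, the kinase that shuts off pyruvate dehydrogenase, was low, at 5.90, 6.27 and 6.86 FPKM at 4 h and 5.48, 5.67 and 6.58 FPKM at 24 h. At both times DMSO was lowest and dTRIM24 highest, which held for no other gene of the 10. BNIP3, a receptor that marks mitochondria for autophagy, stood at 36.8, 35.7 and 37.04 FPKM at 4 h and at 32.5, 31.3 and 34.8 FPKM at 24 h. P4HA1, a collagen prolyl hydroxylase, stood at 24.9, 27.01 and 26.3 FPKM at 4 h and at 23.6, 23.5 and 24.5 FPKM at 24 h. BNIP3 and P4HA1 had the narrowest ranges of the 10 over the groups, 0.24 and 0.19 on the log2(FPKM + 1) scale, and 8.60% and 2.71% of kept genes had a narrower one.

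Both secreted factors were at low or middling levels. VEGFA, the growth factor of blood vessels, stood at 16.7, 18.5 and 17.3 FPKM at 4 h and at 13.8, 14.2 and 19.4 FPKM at 24 h. ADM, the precursor of the peptide adrenomedullin, was the lowest gene, at 2.64, 2.21 and 1.87 FPKM at 4 h and 1.92, 2.29 and 2.96 FPKM at 24 h. In ADM dTRIM24 was the lowest treatment at 4 h and the highest at 24 h. By mean over the groups the order from high to low was ENO1, LDHA, PGK1, BNIP3, P4HA1, VEGFA, SLC2A1, PFKFB3, PDK1 and ADM. Group values of VEGFA and SLC2A1 overlapped, as did those of SLC2A1 and PFKFB3, and no other neighbours in this order did.

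**Figure D2:**
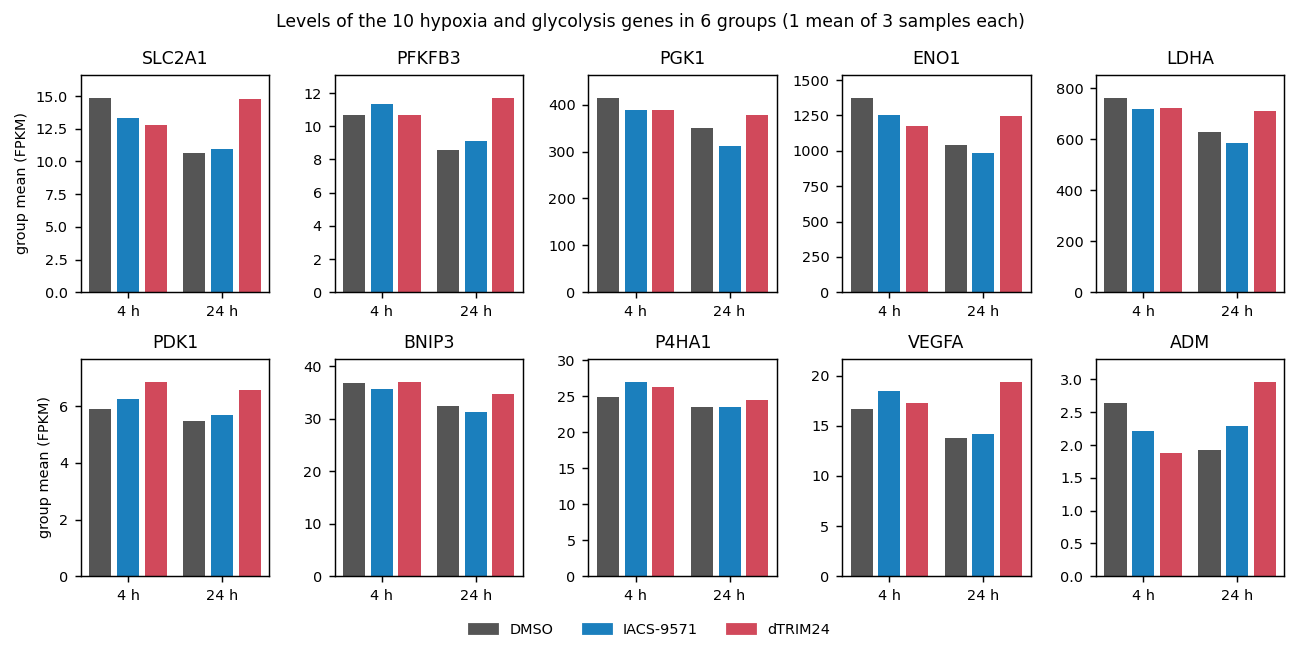
Mean FPKM of each of the 10 genes in the 6 groups, with 1 bar per group (the mean of 3 samples) and each axis starting at 0. Relative to its own level ADM differs most in height, from 1.87 to 2.96 FPKM, and ENO1, with the widest range on the log2(FPKM + 1) scale, runs from 988 to 1375 FPKM.

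At 4 h the genes showed no common direction with either compound. Differences are on the log2(FPKM + 1) scale, where low genes differ by less than in FPKM itself. A gene is called past 2-fold from a size of 1 upward. With IACS-9571 against DMSO 0 of 10 passed 2-fold (background 0.29% of kept genes) and 0 passed 1.5-fold (0.661%). The differences ran from -0.18 (ADM) to 0.14 (VEGFA), with a median of -0.07 beside 0.00 for all genes. Of the 10, 4 lay above DMSO (50.1% of kept genes), but 2 did when the groups were rescaled to the ERCC spike-ins, RNAs of known amount mixed into each sample.

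With dTRIM24 against DMSO at 4 h 0 of 10 passed 2-fold (background 0.688%) and 0 passed 1.5-fold (1.02%). As deposited PDK1 stood highest, at 0.19, followed by P4HA1 at 0.08, while ADM stood at -0.34, ENO1 at -0.23 and SLC2A1 at -0.20. The median was -0.04 beside -0.01 for all genes, and 5 lay above DMSO (47.8% of kept genes) as deposited, 3 after rescaling to the spike-ins. With so low a background, 0 of 10 past 2-fold is close to the share in all genes.

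dTRIM24 and IACS-9571 both carry a bromodomain ligand, and dTRIM24 adds the VHL ligand and with it the loss of TRIM24 protein it was built for. VHL binding and TRIM24 loss cannot be told apart in this comparison. At 4 h 0 of 10 genes passed 2-fold (background 0.597%) and 0 passed 1.5-fold (0.751%). PDK1 was highest, at 0.11, followed by BNIP3 at 0.05 and LDHA at 0.01, and the lowest were ADM at -0.16 and ENO1 and VEGFA at -0.09. The median was -0.05 beside -0.02 for all genes, and 3 lay above IACS-9571 (42.5% of kept genes), or 6 after rescaling to the spike-ins. The differences of 25 spike-ins had an SD of 0.22 here, and each of the 10 genes differed by less. That SD is a spread between RNAs, not a replicate error.

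At 24 h all 10 genes lay above DMSO with dTRIM24, and so did 96.8% of kept genes. The median of the 10 was 0.245, and that of all genes was 0.26. Of the 10, 0 passed 2-fold (background 0.199%) and 0 passed 1.5-fold (4.98%). VEGFA stood at 0.46, ADM and SLC2A1 at 0.44, PFKFB3 at 0.41 and ENO1 at 0.26, while PDK1 stood at 0.23, LDHA at 0.18, PGK1 at 0.11, BNIP3 at 0.09 and P4HA1 at 0.05. The median of kept genes was 12.2 FPKM at 4 h and 9.97 FPKM at 24 h in DMSO, and 12.2 and 9.88 FPKM in IACS-9571. In dTRIM24 it was 12.1 and 12.4 FPKM. Cell number was equalised per the labels, but RNA per cell and the mix of cells cannot be told apart in bulk samples.

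Set against the median of all genes, 5 of the 10 lay above and 5 below at 24 h (by construction 50% of kept genes lie above). On that relative scale VEGFA stood at 0.21, SLC2A1 and ADM at 0.19, PFKFB3 at 0.15 and ENO1 at 0.01. PDK1 stood at -0.03, LDHA at -0.08, PGK1 at -0.15, BNIP3 at -0.16 and P4HA1 at -0.20, so these 5 changed sign with the scale. In FPKM itself ADM was 1.54 times as high with dTRIM24 as with DMSO, and with a pseudocount of 0.1 it was the 1 of 10 past 1.5-fold, at 0.60 (background 12.2%). The 4 genes with the highest values were also the 4 of the 10 richest in GC, with 57.2% in VEGFA, 56.6% in SLC2A1, 59.4% in ADM and 60.3% in PFKFB3, and the others had between 40.2% (P4HA1) and 54.8% (BNIP3).

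Across 10240 kept genes the difference between dTRIM24 and DMSO went with transcript GC content, with a Spearman rho of -0.72 at 4 h and 0.60 at 24 h. Genes measured in the same libraries are not independent, so this is a description, and the source of the relation was not tested. With a cubic trend on GC content taken out of the 24 h difference, VEGFA stood at 0.11, SLC2A1 at 0.10, ADM and PDK1 at 0.05 and PFKFB3 at 0.0012. ENO1 and LDHA stood at -0.02, PGK1 at -0.07, P4HA1 at -0.11 and BNIP3 at -0.22, and the median of the 10 was -0.0077 (-0.0050 for all genes). The same step at 4 h put VEGFA at 0.15, PFKFB3 at 0.14, PDK1 at 0.10 and BNIP3 at 0.08. The other 6 then lay below 0, from P4HA1 at -0.03 to ADM at -0.22, and the median was -0.07 (-0.03 for all genes). Whether GC content has a part in the pattern was not tested beyond this.

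**Figure D3:**
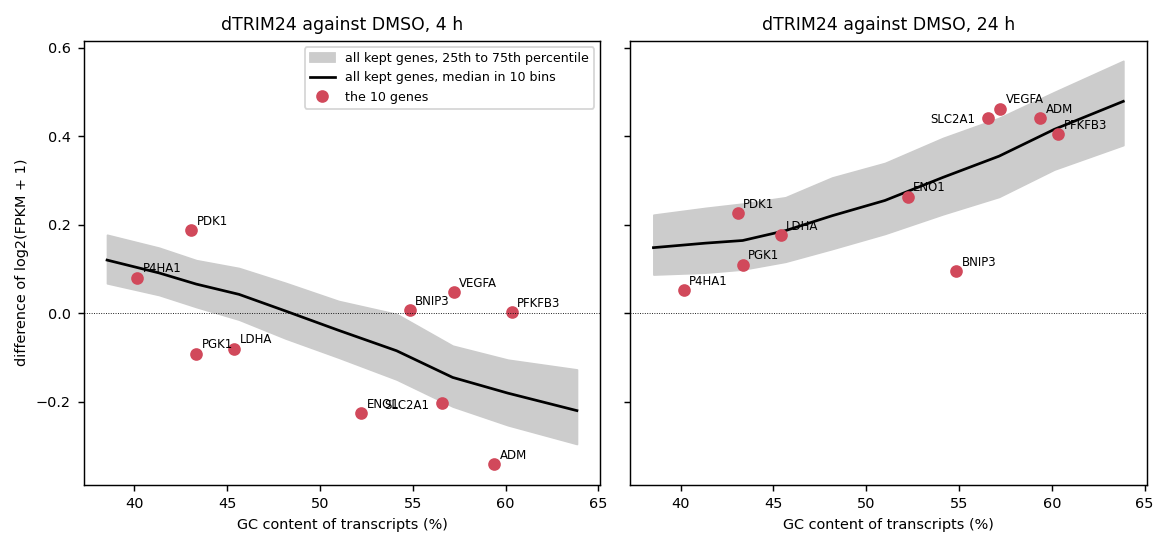
Difference of log2(FPKM + 1) between dTRIM24 and DMSO against transcript GC content in percent, at 4 h (left) and 24 h (right). The black line is the median of kept genes in 10 GC bins, the grey band their 25th to 75th percentile, and the points are the 10 genes; the line goes from 0.12 to -0.22 at 4 h and from 0.15 to 0.48 at 24 h, with SLC2A1, VEGFA, ADM and PFKFB3 toward the GC-rich end.

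Against IACS-9571 at 24 h all 10 genes lay above with dTRIM24, as did 98.4% of kept genes. The median of the 10 and the median of all genes were both 0.28. Of the 10, 0 passed 2-fold (background 0.217%) and 0 passed 1.5-fold (3.21%). VEGFA stood at 0.43, SLC2A1 at 0.40, ENO1 at 0.34, PFKFB3 at 0.33, LDHA and PGK1 at 0.28 and ADM at 0.27. PDK1 stood at 0.18, BNIP3 at 0.15 and P4HA1 at 0.06. Set against all genes they ran from -0.22 (P4HA1) to 0.15 (VEGFA), with 6 above and 4 below (50% of kept genes above). Comparisons with dTRIM24 at a time share its mean, and comparisons with DMSO share that of DMSO, so they are not independent.

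IACS-9571 at 24 h left the genes close to DMSO. Of the 10, 0 passed 2-fold (background 0.172%) and 0 passed 1.5-fold (0.452%). ADM was highest at 0.17 and PGK1 lowest at -0.17, and the other 8 lay between -0.10 (LDHA) and 0.07 (PFKFB3). The median was 0.02 beside -0.02 for all genes, and 5 lay above DMSO (42.6% of kept genes), or 6 after rescaling to the spike-ins.

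**Figure D4:**
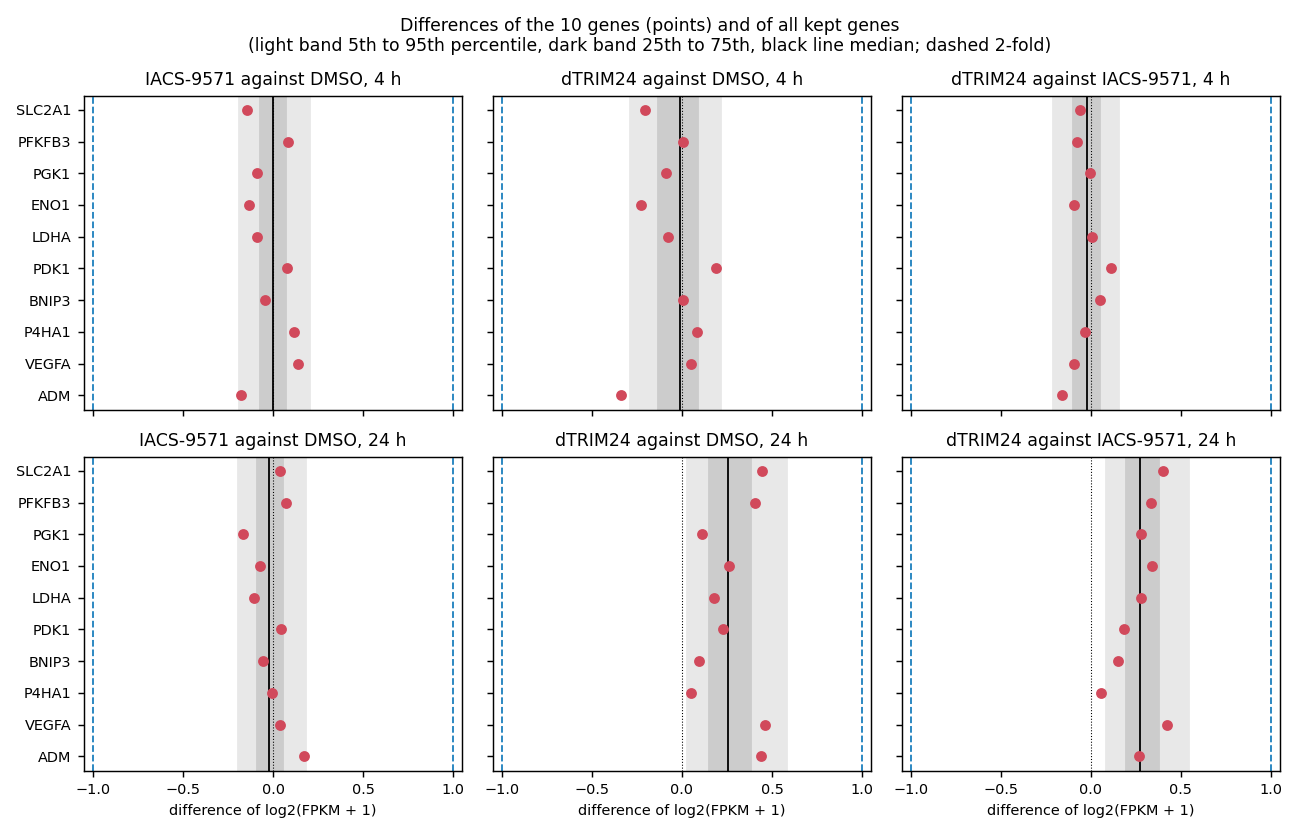
Difference of log2(FPKM + 1) for the 10 genes (points) in the 6 comparisons of compounds, with the 5th to 95th percentile of kept genes in light grey, their 25th to 75th in dark grey, their median as a black line and 2-fold as dashed lines. Points lie inside 2-fold in each panel, and at 24 h with dTRIM24 they are spread around the shifted median of all genes, 0.26 and 0.28.

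Between 4 h and 24 h all 10 genes were lower in DMSO, with a median of -0.27 beside -0.22 for all genes, of which 5.03% were higher. Here 0 of 10 passed 2-fold (background 0.217%) and 0 passed 1.5-fold (4.01%). SLC2A1 stood at -0.45 and ENO1 at -0.40, while PDK1 stood at -0.09 and P4HA1 at -0.07. In IACS-9571 the median was -0.27 beside -0.26, and 1 gene, ADM, was higher at 24 h, by 0.03 (3.03% of kept genes were higher). ADM lay above 98.0% of kept genes there. There 0 of 10 passed 2-fold (0.443%) and 0 passed 1.5-fold (2.5%). In dTRIM24 the median was 0.03 beside 0.05 and 5 of 10 were higher (61.4% of kept genes), with 0 past 2-fold (0.67%) and 0 past 1.5-fold (1.18%). ADM was the highest there, at 0.46, above 99.1% of kept genes, from 1.87 to 2.96 FPKM. That is a ratio of 1.58 in FPKM, and with a pseudocount of 0.1 ADM was the 1 of 10 past 1.5-fold, at 0.63 (background 2.27%). Once the GC trend was removed ADM stood at 0.07 in DMSO, 0.37 in IACS-9571 and 0.34 in dTRIM24.

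The rest of glycolysis was taken from a list of 18 enzymes from hexokinase to lactate dehydrogenase, which includes ENO1, PGK1 and LDHA. Of these 15 were kept, and HK3, PFKM and ENO2 were not. With dTRIM24 at 4 h 14 of the 15 lay below DMSO and 1 above (47.8% of kept genes lay above), with a median of -0.19 beside -0.01 for all genes. PFKL, the liver-type phosphofructokinase, had 49.2 FPKM against 61.8 FPKM in DMSO, and ALDOA, an aldolase, 768 FPKM against 941 FPKM. GPI, the glucose phosphate isomerase, had 107 FPKM against 132 FPKM, and GAPDH, which feeds PGK1, 3617 FPKM against 4482 FPKM. PGK1 at -0.09, LDHA at -0.08 and ENO1 at -0.23 lay nearer to 0 than GAPDH at -0.31. With the GC trend taken out 13 of the 15 lay below and the median was -0.16, beside -0.03 for all genes. With IACS-9571 at 4 h 13 of 15 lay below DMSO (50.1% of kept genes lay above), with a median of -0.10. Housekeeping genes lay low with dTRIM24 at 4 h as well: 8 of 12 were below DMSO with a median of -0.11, RPLP0 at -0.29, GUSB at -0.27, ACTB at -0.26 and SDHA at -0.20. Removal of the GC trend put 11 of these 12 below DMSO, again with a median of -0.11.

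At 24 h the 15 kept glycolysis enzymes all lay above DMSO with dTRIM24 (as did 96.8% of kept genes), with a median of 0.35 beside 0.26 for all genes. Set against all genes the median was 0.09 with 11 above and 4 below. Once the GC trend was removed it was -0.0020 beside -0.0050 for all genes, with 7 above and 8 below. PFKL stood highest, at 59.2 FPKM against 39.9 FPKM in DMSO (0.56). PFKP, the platelet-type isoform, and ALDOC, another aldolase, stood at 0.44 and HK1, a hexokinase, at 0.40. The lowest were PGK1 at 0.11, LDHA at 0.18, LDHB at 0.20 and PGAM1 at 0.21, and 0 of 15 passed 1.5-fold (background 4.98%). Against IACS-9571 14 of the 15 lay above at 24 h (98.4% of kept genes), with a median of 0.35 beside 0.28 for all genes. With the GC trend taken out 13 lay above with a median of 0.05, beside 0.0047 for all genes. At 4 h 13 of the 15 lay below IACS-9571 (42.5% of kept genes lay above) with a median of -0.09 beside -0.02. With the GC trend taken out 12 lay below (median -0.06 beside -0.01 for all genes). Of the 12 housekeeping genes 10 lay above DMSO with dTRIM24 at 24 h (96.8% of kept genes), with a median of 0.22, SDHA at 0.46 and TBP at 0.31. Once the GC trend was removed 5 of the 12 lay above and 7 below, with a median of -0.08.

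**Figure D5:**
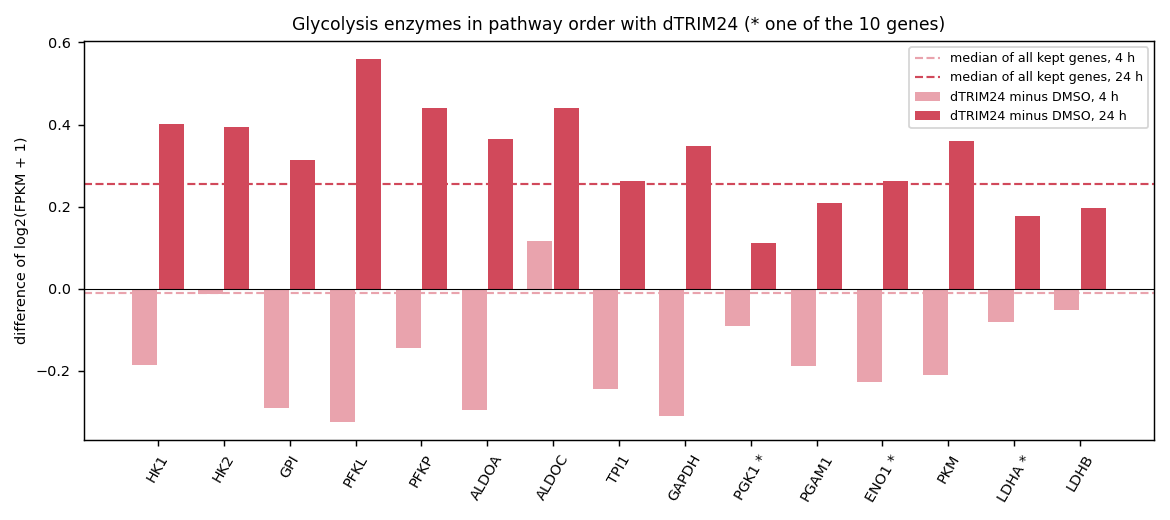
Difference of log2(FPKM + 1) between dTRIM24 and DMSO at 4 h (light bars) and 24 h (dark bars) for the 15 kept glycolysis enzymes in pathway order, with dashed lines at the median of all kept genes. At 4 h the bars lie below 0 except that of ALDOC, down to -0.32 in PFKL, and at 24 h all 15 lie above 0, from 0.11 in PGK1 to 0.56 in PFKL.

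Close relatives of the 10 genes were also measured, and 9 of 21 such paralogs were kept. LDHB, which favours lactate use, was more abundant than LDHA in each group, and the ratio of LDHA to LDHB lay between 0.558 and 0.592. Ratios inside a group do not depend on the scaling of its column, but the GC trend is not taken out of them. The ratio of SLC2A1 to SLC2A3, another glucose transporter, was lowest with IACS-9571 at 4 h (0.376) and highest with dTRIM24 at 24 h (0.475). SLC2A3 and SLC2A14 are near-identical copies whose reads may be split, and SLC2A14 had 5.74 FPKM with dTRIM24 against 7.34 FPKM in DMSO at 4 h. The ratio of PDK1 to PDK2 was 1.07 with dTRIM24 at 4 h and between 0.743 and 0.902 in the other groups. At that time PDK2 had 6.43 FPKM with dTRIM24 against 7.72 FPKM in DMSO, and PDK3, another kinase of the family, 3.02 FPKM against 2.72 FPKM. With the GC trend taken out of this 4 h difference PDK1 stood at 0.10 and PDK2 at -0.12. At 24 h SLC2A1 then stood at 0.10 and SLC2A3 at -0.05 with dTRIM24 against DMSO.

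VEGFA was between 3.19 and 3.90 times as high as VEGFB, and BNIP3 between 3.94 and 5.10 times as high as BNIP3L, its partner in mitophagy. The ratio of ADM to ADM2, a related peptide gene, ran from 0.997 with dTRIM24 at 4 h to 1.78 with IACS-9571 at 24 h, with both genes under 3 FPKM. PFKFB4, a relative of PFKFB3 and itself a HIF target, was near the floor, at 0.883, 1.89 and 1.37 FPKM at 4 h and 0.569, 0.559 and 0.867 FPKM at 24 h. Its difference with IACS-9571 at 4 h, 0.62, was the 1 past 1.5-fold among these 9 paralogs in the comparisons of compounds (background 0.661% of kept genes in that comparison). With dTRIM24 at 24 h all 9 paralogs lay above DMSO (as did 96.8% of kept genes), with a median of 0.25, and 4 of 9 lay above the median of all genes. At 4 h 3 of 9 lay above DMSO (47.8% of kept genes), with a median of -0.05.

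Further HIF targets gave a similar picture. Of 40 others 29 were kept, 6 of them also in the other lists. In the comparisons of compounds 0 passed 2-fold (background between 0.172% and 0.688% of kept genes). With dTRIM24 against DMSO 15 of 29 lay above at 4 h (47.8% of kept genes), with a median of 0.02. With the GC trend taken out that median was -0.0054 beside -0.03 for all genes, with 12 above and 16 below. At 24 h 28 of 29 lay above (96.8% of kept genes), with a median of 0.18. Set against all genes it was -0.07, with 12 above and 17 below. Removal of the GC trend gave a median of -0.04 beside -0.0050 for all genes, with 8 above and 20 below. Against IACS-9571 10 of 29 lay above at 4 h (42.5% of kept genes), with a median of -0.05. At 24 h 28 of 29 did (98.4%), with a median of 0.23, or -0.05 set against all genes. Once the GC trend was removed it was -0.06 beside 0.0047 for all genes, with 10 above and 18 below. At 4 h with dTRIM24 ERO1L, an oxidase of the endoplasmic reticulum, stood at 0.29 and ANKRD37 at 0.26, while SLC16A3, the lactate exporter, stood at -0.27, HILPDA, a lipid droplet protein, at -0.24 and NDRG1 at -0.22.

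At 24 h DDIT4, an inhibitor of mTORC1, stood at 0.61 with dTRIM24 and was the 1 of 29 further targets past 1.5-fold against DMSO (background 4.98% of kept genes). Against IACS-9571 the 1 past it was SLC16A3, at 0.62 (3.21%). Both counts are close to the share in all genes. SLC16A3 had 57.7 FPKM with dTRIM24 against 40.2 FPKM in DMSO and 37.1 FPKM in IACS-9571. STC2, a secreted glycoprotein, stood at 0.50, PLOD1, a collagen lysyl hydroxylase, at 0.48 and BHLHE40, a transcriptional repressor, at 0.37. With the GC trend taken out DDIT4 stood at 0.14 against DMSO, STC2 at 0.17 and PLOD1 and BHLHE40 at 0.10. SLC16A3 then stood at 0.15 against IACS-9571. CA9 and EGLN3, which many cells induce strongly in hypoxia, held between 0.0914 and 0.105 FPKM. Their 6 values are identical, and 4595 rows of the table hold that same set of values, so it stands for genes at the bottom of the scale and no difference can be read from it.

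The oxygen-sensing machinery was expressed, and within it VHL had the highest difference of dTRIM24 from DMSO at 24 h. VHL mRNA stood at 8.75, 10.4 and 9.72 FPKM at 4 h and at 6.94, 9.04 and 13.9 FPKM at 24 h. At 24 h dTRIM24 thus lay 0.91 above DMSO and 0.57 above IACS-9571, or 0.65 and 0.30 set against all genes. Once the GC trend was removed these were 0.69 and 0.33. Of the 17 kept genes of this list VHL was the 1 past 1.5-fold against DMSO at 24 h (background 4.98% of kept genes). Against IACS-9571 at 24 h EGLN2 was the 1 past 1.5-fold, at 0.60 (3.21%), above VHL, though below it once the GC trend was removed, at 0.15. Both shares rest on a single gene, and 0 passed 2-fold in either comparison (background 0.199% and 0.217%). The list's median was 0.25 at 24 h with all 17 above DMSO (96.8% of kept genes), and -0.01 at 4 h with 7 above (47.8%) and 10 below.

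HIF1A, the widely expressed alpha subunit, stood at 20.9, 23.1 and 23.4 FPKM at 4 h and at 18.8, 18.3 and 22.1 FPKM at 24 h. EPAS1, the other alpha subunit, stood at 11.4, 13.9 and 10.3 FPKM at 4 h and at 8.87, 10.5 and 11.5 FPKM at 24 h. IACS-9571 was thus the highest treatment for EPAS1 at 4 h, with dTRIM24 at -0.40 relative to it. ARNT, their partner, stood at 18.8, 19.03 and 17.96 FPKM at 4 h and at 15.8, 15.4 and 19.03 FPKM at 24 h, and EGLN1, the main HIF hydroxylase, lay between 17.8 and 21.6 FPKM. EGLN2 stood at -0.27 with dTRIM24 at 4 h and 0.53 at 24 h against DMSO, the elongin B gene TCEB2 at -0.31 and 0.53, and UBE2M, which conjugates NEDD8, at -0.21 and 0.37. With the GC trend taken out EGLN2 stood at -0.12 and 0.08 and UBE2M at -0.14 and 0.06, and TCEB2 had no GC value. HIF activity is set mostly by protein stability, which mRNA levels do not measure.

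The columns were checked for the labelled cells. All 7 myeloid markers were kept, among them CD33, FLT3 and SPI1. No T cell, B cell or erythroid marker (3 of each) reached 1 FPKM, while KRT8 and KRT18 of 4 epithelial markers did, as did PECAM1 of 5 fibroblast and endothelial markers. Column totals ran from 771830 to 1058351 FPKM, and the median of the 25 spike-ins lay between 29.7 and 31.7 FPKM. Of the summed FPKM of kept genes the 10 genes made up 0.342% in DMSO at 4 h and between 0.325% and 0.329% in the other 5 groups.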

How the data were processed

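Per the submitters' processing notes, TopHat2, Cuffnorm and hg19 were used, and the authors deposited FPKM values as 1 mean per group. Tool versions, annotation and the use of strand are not stated in the labels, so reads of SLC2A1 and ENO1 and of their antisense genes cannot be told apart (SLC2A1-AS1 at most 0.239 FPKM, ENO1-AS1 at most 0.745 FPKM). Per the labels' protocols, cell number was equalised and ERCC RNA added. The treatment text gives 24 h throughout, while titles and time points, followed here, give 4 h or 24 h. Nothing says whether the 3 samples of a group were separate cultures.

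The members and lists were chosen with earlier results of these data known. From 23713 rows, 92 spike-ins and 1721 small RNAs were left out, and genes whose highest group reached 1 FPKM were kept. Differences were taken of log2(FPKM + 1). Group means allow no test, so lists are described by counts and medians. Genes named outside the 10 were VHL, HIF1A, EPAS1, ARNT, EGLN1 and EGLN3, all kept paralogs, up to 4 genes of each list with the largest difference of dTRIM24 from DMSO at each time, genes past 2-fold, and the 3 of likest pattern for the 2 members of widest range. A few genes that this rule names are not reported here. CA9, PGAM1, markers and genes below the floor were named after their values were seen. GC content is the median over GENCODE release 29 transcripts, matched by symbol (92.7% of kept genes). Promoters are from RefSeq on GRCh38.p14, another build than that of the files. The bases after the start were found in a GENCODE transcript for 8 of the 9 members, not for PFKFB3, whose site is not printed. The scripts were tested on simulated data. Alternatives covered the pseudocount (0.1 and 0.5), the filter (none, or 5 FPKM), the scaling (to the spike-ins, to the median of all genes, by quantiles), removal of the GC trend, and 1.5-fold in place of 2-fold. The work used Python 3.11.15 with pandas 2.3.3, numpy 2.4.6, matplotlib 3.10.9 and scipy 1.17.1.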

Additional observations from a re-analysis of the deposited data

How the results depend on the processing

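In each of the 9 comparisons 0 of the 10 genes passed 2-fold under each alternative. The largest difference of a gene was 0.46 in size as deposited and 0.63 with a pseudocount of 0.1. With that pseudocount, in a setting chosen after seeing the data, the count of the 10 past 1.5-fold was 1 in place of 0 for dTRIM24 against DMSO at 24 h and 1 for 24 h against 4 h in dTRIM24, both ADM. With no replicate error, a value counts as moved when it shifted by more than the SD of the spike-ins in that comparison. For dTRIM24 against DMSO at 24 h the median of the 10 genes was -0.0105 with median centring, 0.0341 with quantile normalization and -0.00774 once the GC trend was removed. Against IACS-9571 it was 0.00275, -0.0121 and 0.00737. For 24 h against 4 h it was -0.0489, 0.00768 and 0.0359 in DMSO and -0.0154, 0.0381 and 0.0302 in IACS-9571. These 3 alternatives centre the groups by construction. No median moved under the pseudocounts, filters or spike-in rescaling. The spike-in medians were already close, between 29.7 and 31.7 FPKM, so that rescaling shifts the columns little and could hardly move a median. ADM is left out by the floor of 5 FPKM.

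Counts of all genes past 2-fold depended on the setting, and a pseudocount of 0.1 gave the highest count in each comparison. Over the alternatives they ran from 15 to 116 (22 as deposited) for dTRIM24 against DMSO and from 7 to 66 (24) against IACS-9571 at 24 h. For IACS-9571 against DMSO they ran from 24 to 67 (32) at 4 h and from 13 to 60 (19) at 24 h, and for time from 18 to 68 (24) in DMSO and from 25 to 102 (49) in IACS-9571. Median centring turned the split for dTRIM24 against DMSO at 24 h from 15 higher and 7 lower to 5 and 18, and for time in DMSO from 18 and 6 to 32 and 3. No paired analysis was possible because the table holds 1 mean per group, and leaving out replicates was not possible for the same reason. Depth is unknown, and ADM, ADM2, PFKFB4 and ANKRD37, all under 3 FPKM, are the least certain.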

Other observations

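Genes that handle pyruvate and lactate beyond LDHA and PDK1 were also measured, and 17 of 18 were kept. With dTRIM24 against DMSO 11 of 17 lay above at 4 h (47.8% of kept genes), with a median of 0.065 beside -0.01 for all genes. At 24 h 16 of 17 did (96.8%), with a median of 0.20 beside 0.26. Of the 17, 0 passed 2-fold at 4 h (background 0.688%) and 0 at 24 h (0.199%). With the GC trend taken out 6 lay above and 11 below at 4 h. The median was then -0.01, still above that of all genes, -0.03. Against IACS-9571 at 24 h SLC16A3 and PCK2 passed 1.5-fold (2 of 17, background 3.21% of kept genes). PCK2, the mitochondrial enzyme that makes phosphoenolpyruvate, had 27.7 FPKM with dTRIM24 against 34.4 FPKM in DMSO at 4 h and 31.8 FPKM against 22.9 FPKM at 24 h. PC, the pyruvate carboxylase, had 5.89 FPKM against 6.99 FPKM and then 6.69 FPKM against 4.73 FPKM. PDP2, a phosphatase that opposes PDK1, stood at 0.43 with dTRIM24 at 24 h. With the GC trend taken out PDP2 stood at 0.17 and PC at 0.0069 against DMSO at 24 h. Against IACS-9571 at 24 h SLC16A3 then stood at 0.15 and PCK2 at 0.19.

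Of 13 partners of the secreted and membrane proteins 7 were kept. The VEGFA receptors KDR, FLT1 and NRP2 and the ADM receptor parts CALCRL, RAMP2 and RAMP3 were below 1 FPKM in each group. NRP1, a coreceptor of VEGFA, stood at 3.21, 4.46 and 3.74 FPKM at 4 h in DMSO, IACS-9571 and dTRIM24. P4HB, the partner subunit of P4HA1, had 352 FPKM with dTRIM24 against 426 FPKM in DMSO at 4 h, and BSG, which escorts lactate transporters to the membrane, 318 FPKM against 398 FPKM. BCL2L1, a survival protein, stood at -0.19 at 4 h and 0.42 at 24 h with dTRIM24. The 7 had a median of -0.08 at 4 h and 0.30 at 24 h, beside -0.01 and 0.26 for all genes. With the GC trend taken out these medians were -0.10 and 0.01, beside -0.03 and -0.0050 for all genes. BCL2L1 then stood at -0.10 and 0.08.

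ENO1 and ADM had the widest ranges of the 10 genes. Over the 6 group means, which share columns and scaling, the patterns most like that of ENO1 included those of APEH and STXBP2, each with a Pearson r of 0.999, and 1629 of 7795 genes compared had r over 0.95. For ADM they were TMEM246 (r 0.973), HBEGF (0.963) and GFI1 (0.957), and 4 of 7883 had r over 0.95. HBEGF, a secreted growth factor, stood at 7.41, 6.55 and 6.43 FPKM at 4 h and at 6.13, 7.04 and 8.28 FPKM at 24 h in the same order of treatments.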
